A study of Nitraria sibirica with 9 samples.

Results

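Nitraria sibirica is a salt-tolerant shrub. Its leaf RNA was sequenced after 3 days at 0, 100 or 400 mM NaCl, and the 224 clusters described here are those that lie outside the largest group of the assembly. A cluster is a set of sequences assembled from the reads without a genome, and its name holds a number before the point, read here as that of a group since the labels do not explain it. Cluster-23439 is by far the largest of these groups, with 98635 of the 126059 clusters. The other 27424 clusters, 21.8% of the total, belong to 24671 small groups. Members were chosen by FPKM: they are all clusters outside Cluster-23439 that are in the deposited series table, which holds the 31628 clusters with an FPKM over 0.3 in every one of the 9 libraries. FPKM divides the fragments of a cluster by its length and by the library's fragments. The table thus fixed a floor of expression in all libraries, so that clusters switched on or off by salt cannot be members. No further choice by level was needed, as 224 is under the limit of 300.

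Seedlings were kept in a greenhouse, and each salt level has 3 leaf libraries. The plants without added salt served as controls, and salt was raised stepwise so that 100 and 400 mM were reached together. No other treatment, genotype or line is named in the labels. The labels number the replicates without saying whether they came from separate plants, so p-values rest on the differences between these libraries, and those may be technical only.

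Plants of saline soils meet high salt with ion transport into the vacuole, compatible solutes and changes in water uptake, and much of this work is done in the leaf. A transcriptome assembled without a genome holds long, well-covered sequences of abundant transcripts and short pieces of scarce ones. Sequences that share reads or parts of their sequence are commonly joined in a group, while a sequence that shares nothing with others stands alone. The files pair no cluster with a gene name, protein or sequence, so roles cannot be given, and the label leaf could not be checked against marker genes.

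Few outside clusters reached the series table. Only 0.817% of the 27424 did, against 31.8% of the Cluster-23439 clusters, and they make up 0.708% of its rows. Over the whole collection, 1509 outside clusters (5.50%) had a count above 0 in all 9 libraries and 874 (3.19%) in none. In Cluster-23439, 43061 clusters (43.7%) had a count in all 9 libraries and 3597 (3.65%) in none. The commonest pattern outside Cluster-23439 was a count in 4 of the 9 libraries, found for 4421 clusters (16.1%). The floor of the table cut through a dense range of levels. Of the members, 86 had a lowest FPKM between 0.31 and 0.4, with a median mean FPKM of 1.01. Just below the floor, 139 further outside clusters had a lowest FPKM over 0.2 and up to 0.3, with a median mean FPKM of 0.764.

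Most members stood alone in their group. For 165 of 224 (73.7%) the group held no other cluster, 36 were in a group of 2 and 23 in a group of 3 or more, the largest with 7 clusters. The 224 came from 220 groups, and 4 groups gave 2 members each. Among all outside clusters 82.2% were alone.

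The members were scarce transcripts. Their mean FPKM over the 9 libraries ran from 0.507 to 10.5 with a median of 1.38. Below 1 FPKM lay 61 members, 102 lay from 1 to under 2, 53 from 2 to under 5 and 8 at 5 or more. Of the Cluster-23439 rows of the table, 55.6% had a mean of 5 FPKM or more, and 11610 (37.0%) lay above the highest member. The presence in the table was fixed by FPKM, so these levels are a description.

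In counts the members lay close to the limit of what these libraries can measure. The deposited counts are estimated counts, and library totals ran from 16502728 to 23933039. The median of the 2016 member counts, 224 clusters in 9 libraries, was 11. The mean count per library ran from 1.78 to 71.2 with a median of 12.1. At that median, counting error alone is 28.8% of the value, a figure that covers counting error only. A mean count under 10 was found for 89 members, and 10 members had 50 or more.

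Members were also short. Their lengths ran from 286 to 2954 bases with a median of 639.5 and quartiles of 470 and 1032. Under 500 bases there were 63 members, 99 had 500 to under 1000, 51 had 1000 to under 2000 and 11 had 2000 or more. Thus 72.3% of members were under 1000 bases, against 30.0% of the Cluster-23439 rows of the table.

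The difference in length held at like mean FPKM and not at like mean count. At a given FPKM a count grows with length, so a choice of rows by low count also chooses short ones. The lengths at like mean count are therefore partly set by that choice. Cluster-23439 rows were sorted into 4 classes by the quartiles of the members, and class medians were averaged. The highest class is wide, and in it the median mean FPKM was 2.65 for members and 4.55 for Cluster-23439 rows, so the 2 are not of like level there. At like mean FPKM (19769 rows), Cluster-23439 rows had a median length of 1657 bases and the members 702. In the lowest class, from 0.507 to 0.98 FPKM, the medians were 1759 and 1080.5 bases, and in the highest, from 2.06 to 10.5 FPKM, 1551 and 506. Over these classes the class medians of mean count averaged 55.2 for Cluster-23439 rows, beside a median of 12.1 for members. When rows of like mean count were taken instead (10504 rows), their median length was 703 bases beside 802.5 for members. Members were then the longer in each of the 4 classes, with medians of 398.5 and 357 bases in the lowest and 1427 and 1236.5 in the highest. In the highest class of count the median mean count was 28.5 for members and 42.3 for Cluster-23439 rows. The 2 are therefore not of like count there. Clusters are not replicates of a condition, so no test was made.

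**Figure D1:**
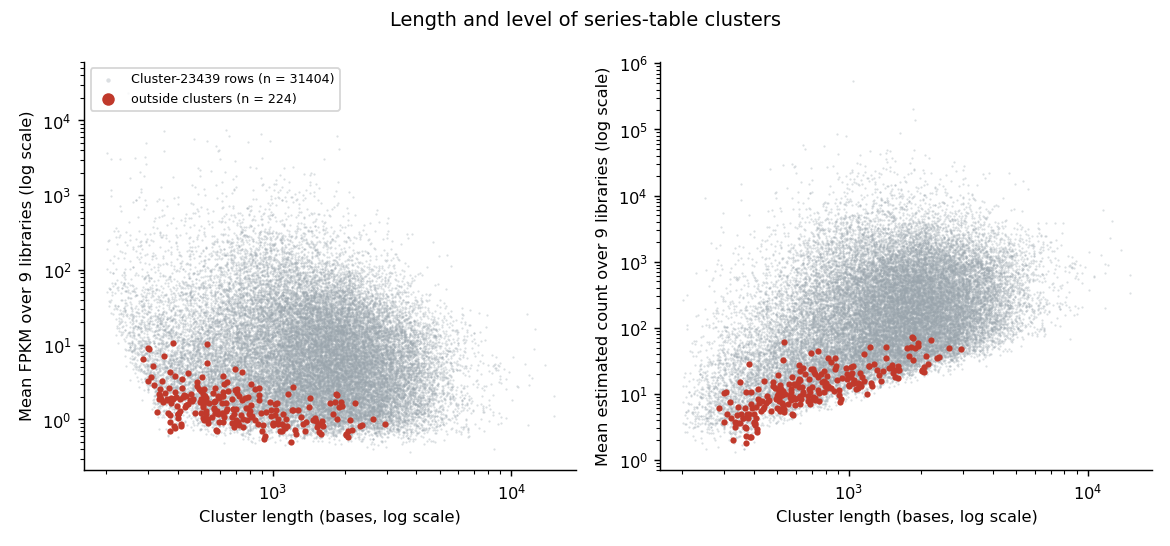
Mean FPKM (left) and mean estimated count (right) over the 9 libraries against cluster length in bases, all axes logarithmic, for the 224 outside clusters (red) and the 31404 Cluster-23439 rows of the series table (grey). The red points lie along the lower edge of the grey cloud, between 286 and 2954 bases, with no mean FPKM above 10.5.

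The plot of length and level shows that within the members longer clusters had lower FPKM. Pearson's r of log2 length and log2 mean FPKM was -0.49 over the 224 members and -0.07 over the 19769 Cluster-23439 rows in the same range of FPKM. With the mean count in place of FPKM, r was 0.78 and 0.77. These are descriptions across clusters that share the same 9 libraries. Length enters FPKM itself, and the deposited counts and FPKM imply a length shorter than the deposited one, by a median of 247 bases (240 to 255). For the shortest clusters this leaves little length to divide by, and a handful of counts gives a high FPKM.

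The 5 members with the highest mean FPKM were Cluster-17609.0, Cluster-12529.0, Cluster-20907.0, Cluster-9113.1 and Cluster-13459.0. All 5 were short, with 381, 532, 299, 304 and 350 bases in that order.

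Cluster-17609.0 stood at the top with a mean of 10.5 FPKM from a mean of 28.6 counts. Its FPKM was 14.45, 15.13 and 12.79 at 0 mM, 12.80, 9.31 and 6.56 at 100 mM and 7.95, 4.82 and 10.75 at 400 mM, for replicates 1 to 3 in each level. The 400 mM libraries lay below all 0 mM libraries, while those at 100 mM overlapped them. The difference did not pass the edgeR quasi-likelihood test, with a log2 fold change of -0.66 ± 0.48 (SE) and an adjusted p of 0.626 at 400 mM.

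Cluster-12529.0 had the lowest pooled within-level SD of log2(FPKM + 1) among these 5, at 0.16. It stood at 8.80, 7.24 and 5.98 FPKM at 0 mM, 10.41, 12.24 and 12.02 at 100 mM and 12.67, 11.80 and 11.97 at 400 mM. Every salt library lay above every 0 mM library, and both salt levels overlapped each other. The means were 7.34 ± 1.41, 11.6 ± 0.999 and 12.1 ± 0.461 FPKM (SD, n = 3 each). Its log2 fold change was 0.90 ± 0.31 (SE) at 100 mM and 0.91 ± 0.31 at 400 mM, with adjusted p of 0.230 and 0.283 by edgeR's quasi-likelihood test, so neither passed.

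The other 3 rested on few counts. Cluster-20907.0, with 9.08 FPKM, had counts of 18, 8 and 17 at 0 mM, 11, 4 and 8 at 100 mM and 11, 8 and 8 at 400 mM. A low-count filter left it out of the main edgeR fit, and its implied length was 56.8 bases of 299. Cluster-9113.1 (8.85 FPKM) had between 4 and 15 counts per library. Cluster-13459.0 (7.02 FPKM) had between 4.67 and 24.6 counts, and all 3 libraries at 400 mM, at 6.15, 5.33 and 4.30 FPKM, lay below the 0 mM libraries at 9.57, 7.18 and 11.82. Its edgeR adjusted p was 0.695 at 400 mM.

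The ends of the length range show the same relation. The shortest member was Cluster-20535.0 with 286 bases, followed by Cluster-20907.0. Cluster-20535.0 had a mean of 6.52 FPKM from a mean of 6 counts, between 3 and 11 per library, and an implied length of 45.9 bases. The longest was Cluster-6681.0 with 2954 bases, at 0.862 FPKM but a mean of 47.9 counts. Its FPKM was 0.65, 0.99 and 0.97 at 0 mM, 1.02, 0.75 and 0.57 at 100 mM and 0.85, 1.34 and 0.62 at 400 mM, and the levels overlapped. The next longest, Cluster-9425.2 with 2620 bases, lay in a group of 7 clusters and had 1.02 FPKM from a mean of 48.5 counts.

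Counts of members were more often whole numbers than those of Cluster-23439 rows. How the counting gave values that are not whole is not stated in the labels or headers. Of the member counts, 81.2% were whole within 0.001, against 24.3% in Cluster-23439 rows of like mean FPKM and 57.0% in those of like mean count. In 162 members (72.3%) all 9 counts were whole, against 18.9% and 47.8% of the rows of like FPKM and of like count. Members alone in their group had 82.5% whole counts, and those with others in the group 77.4%. By salt level, the share of whole member counts averaged 80.4% ± 1.18 without salt and 81.5% at both salt levels, with an SD of 3.17 at 100 mM and of 0.682 at 400 mM (n = 3 libraries).

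The spread between replicates lay above that of Cluster-23439 rows of like FPKM. Within salt levels, the pooled SD of log2(FPKM + 1) had a median of 0.38 over members, with quartiles of 0.27 and 0.49. Cluster-23439 rows of like mean FPKM had 0.33 and those of like mean count 0.42, so members lay above the first and below the second. On the log2(FPKM + 0.1) scale, which compresses low values less, the medians were 0.62, 0.53 and 0.64. The ratio of the highest to the lowest FPKM over the 9 libraries had a median of 4.86 in members. Averaged over classes of mean FPKM, class medians of this ratio were 5.03 for members and 3.97 for Cluster-23439 rows. Over classes of mean count they were 4.70 and 4.93. Only 1 member kept this ratio under 2, and 105 had 5 or more.

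**Figure D2:**
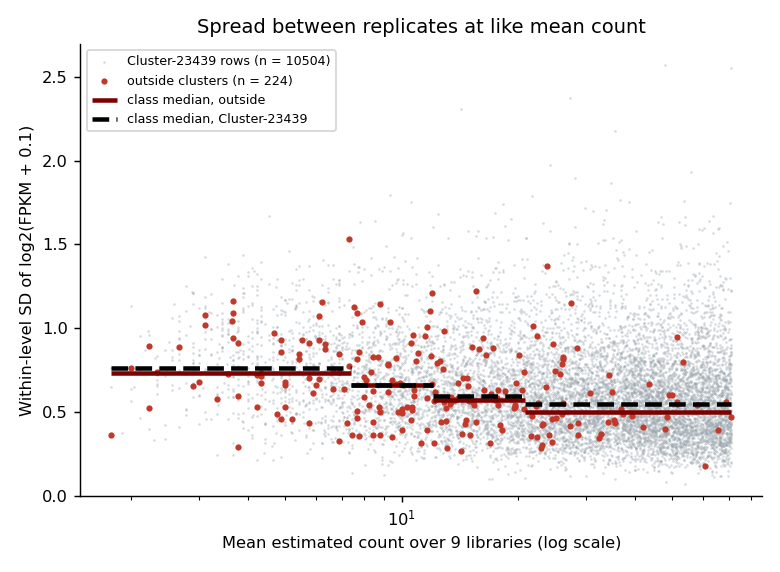
Within-level SD of log2(FPKM + 0.1), pooled over the 3 salt levels, against the mean estimated count over 9 libraries (log axis), for the 224 outside clusters (red) and the 10504 Cluster-23439 rows of the same range of mean count (grey), with bars at the class medians. The solid and dashed bars lie close together in each class and fall from the lowest counts to the highest.

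The least and the most variable members show the range behind these medians. Cluster-12528.0 had the lowest spread, 0.14, with 0.50, 0.68 and 0.68 FPKM at 0 mM, 0.79, 0.84 and 0.85 at 100 mM and 0.73, 0.87 and 0.40 at 400 mM. Cluster-11559.0, also at 0.14, had 0.96, 1.04 and 0.97, then 0.44, 0.47 and 0.79, then 0.82, 1.27 and 0.93 FPKM. Low levels keep this measure small on the log2(FPKM + 1) scale. Cluster-9194.0 had the highest spread, 0.92, with 0.34, 3.09 and 1.78 FPKM at 0 mM, 7.19, 2.71 and 0.32 at 100 mM and 0.50, 0.81 and 1.48 at 400 mM. Its counts ran from 1 to 28, and each level overlapped the others. Cluster-19412.0, at 0.90, ranged from 0.34 FPKM in 100 mM replicate 2 to 8.02 in 400 mM replicate 3.

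As a set, clusters outside Cluster-23439 held fewer of the counts in every salt library than in any 0 mM library. All 27424 together took 0.450%, 0.357% and 0.433% of the counts at 0 mM, 0.337%, 0.202% and 0.166% at 100 mM and 0.270%, 0.213% and 0.183% at 400 mM. Means were thus 0.414% ± 0.0495, 0.235% ± 0.0902 and 0.222% ± 0.0445 (SD, n = 3 each). Replicate 1 was the highest at each salt level. No few clusters carried this share, as the 10 with the most counts held 1.0045% of the counts of all outside clusters. Cluster-23439 clusters that are not in the series table held 6.56% ± 0.625, 5.65% ± 0.521 and 5.92% ± 0.178 of the counts (SD, n = 3 each). Their libraries at 0 mM overlapped those of both salt levels. A share of counts is relative to all other clusters, so it can fall without a fall in the transcripts themselves. In bulk leaf RNA, fewer cells of a type and less RNA per cell also cannot be told apart, and no cause was tested.

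Members followed with a smaller difference, and their groups of libraries were not all separate. The floor left out every outside cluster that was low in any library, so a smaller difference can follow from the choice of members. They held 0.0238%, 0.0188% and 0.0192% of the counts at 0 mM, 0.0192%, 0.0172% and 0.0146% at 100 mM and 0.0168%, 0.0157% and 0.0159% at 400 mM. All libraries at 400 mM lay below all at 0 mM, while 100 mM replicate 1 lay among them. Means were 0.0206% ± 0.00279, 0.0170% ± 0.00231 and 0.0162% ± 0.000587 (SD, n = 3 each). Members gave 6.24% of all counts outside Cluster-23439. Cluster-23439 rows in the members' range of FPKM held 12.5% ± 0.467, 11.1% ± 0.486 and 11.9% ± 0.634 of the counts.

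The number of outside clusters with a count was lowest in 100 mM replicates 2 and 3. At 0 mM, 16327, 16197 and 16987 were detected. At 100 mM, replicate 1 had 16384, while replicates 2 and 3 had 9950 and 9955 from 19763873 and 18070060 counts. At 400 mM there were 15259, 13143 and 11948, in libraries deeper than any at 0 mM. In the same order, 72986, 74449 and 74489, then 73615, 69625 and 68079, then 74310, 73634 and 73185 clusters of Cluster-23439 had a count. Among salt libraries, replicate 1 of either level was thus the nearest to 0 mM, and what sets these libraries apart was not tested.

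**Figure D3:**
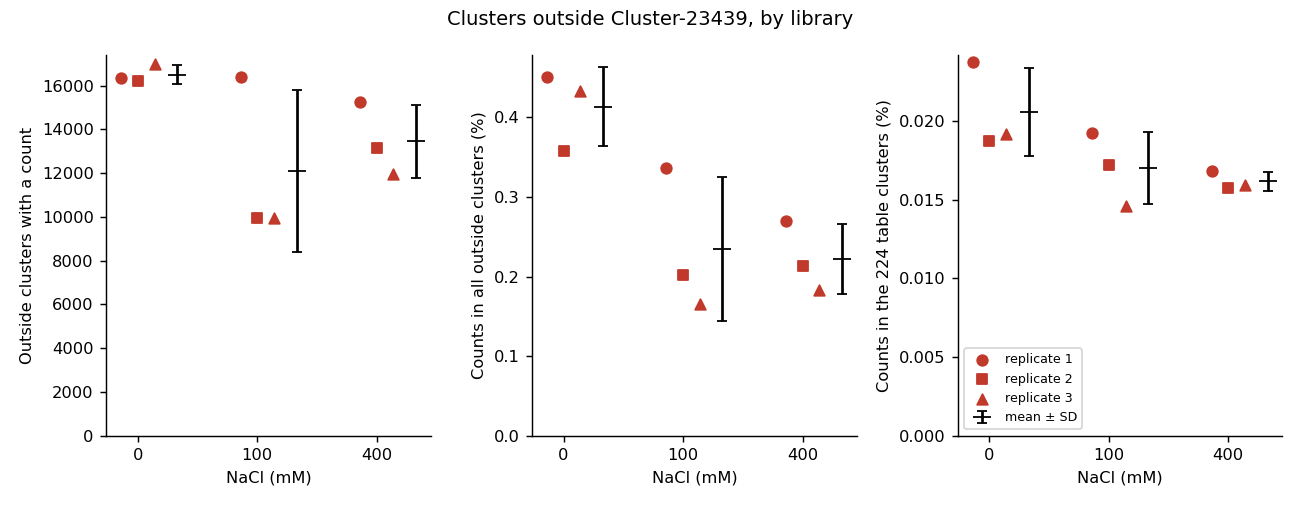
Outside clusters with a count above 0 (left), the percent of counts in all 27424 outside clusters (middle) and the percent of counts in the 224 members (right), by NaCl level in mM. Each symbol is a library, and bars give the mean ± SD of 3; the shares fall from 0.414% to 0.222% for all outside clusters and from 0.0206% to 0.0162% for the members between 0 and 400 mM.

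Each member was then compared between salt levels, which asks whether transcripts outside the main group respond to salt. No member passed the main fit of edgeR's quasi-likelihood test in any comparison. Alternative edgeR fits called Cluster-10695.0, lower at 100 mM. Its edgeR adjusted p was 0.0230 with the series table's clusters alone and 0.0330 with newer adjusted deviances. Limma called the same member, and DESeq2 called a few. Of the 224, 152 (67.9%) passed the low-count filter of the main edgeR fit, against 96.8% of the Cluster-23439 rows of the table. The other 72 had a median mean count of 5.65, and none exceeded 10.6. A filter on counts can keep a member through the level where it is high, so values over the 152 do not stand for all members. All 9 libraries entered 1 fit of edgeR's quasi-likelihood test over 56832 clusters, with Benjamini-Hochberg adjustment over all of them and calls at an adjusted p under 0.05.

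At 100 mM against 0 mM, 0 of 152 members were called in this main fit. Of all clusters tested, 0.5% were, 0.424% higher and 0.0757% lower. At 400 mM against 0 mM and at 400 mM against 100 mM it called 0 members, with 0% of all clusters in both. Over all clusters the 284 calls at 100 mM changed when a library was left out, which also leaves the fit fewer degrees of freedom. Such fits do not show which libraries carried the calls. Leaving out 1 library at 0 or 100 mM left 0, 0 and 1 calls for the 0 mM replicates and 7, 2 and 1 for the 100 mM replicates. Without 400 mM replicate 1, 2 or 3 there were 649, 2 and 172. At 400 mM against 0 mM, 120 clusters were called without 400 mM replicate 1. At an unadjusted p under 0.05, 6 members were higher and 3 lower at 100 mM, together 5.92% of those tested, where 15.4% of all clusters tested were (8.9% higher, 6.53% lower). At 400 mM 3 were higher and 7 lower (6.58%, where 13% of all clusters were, 8.13% higher and 4.9% lower), and between the salt levels 2 were higher at 400 mM and 4 lower (3.95%, where 7.02% were, 3.63% higher and 3.39% lower). Cluster-23439 rows of like mean FPKM had shares of 10.99%, 8.71% and 4.86% in the same order. By mean count, the lowest class held no tested member. In the other classes, from low to high, members had 5%, 3.57% and 8.93% at 100 mM, beside 4.30%, 7.27% and 12.3% of Cluster-23439 rows. At 400 mM members had 5%, 5.36% and 8.93%, beside 4.16%, 5.17% and 9.56%. Between the salt levels members had 5%, 0% and 7.14%, beside 2.15%, 3.00% and 5.18%. The smallest adjusted p of a member was 0.175 at 100 mM, 0.190 at 400 mM and 0.562 between the salt levels. These tests cannot show that members did not change, given the counts.

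DESeq2, another count test with size factors of its own, called 4 members at 100 mM (3 higher, 1 lower), 5 at 400 mM (2 higher, 3 lower) and 1, higher, between the salt levels. Of 217 members with a DESeq2 adjusted p the calls at 100 mM stand beside 8.08% of all clusters called (4.91% higher, 3.17% lower). At 400 mM it called 6.02% of all clusters (3.89% higher, 2.13% lower), and between the salt levels 1.98% (0.966% higher, 1.01% lower). Those at 100 mM were Cluster-12529.0, Cluster-21033.0 and Cluster-22916.0 upward and Cluster-10695.0 downward, with DESeq2 adjusted p from 0.0152 to 0.0348. At 400 mM Cluster-12529.0 and Cluster-14850.1 were higher and Cluster-10695.0, Cluster-15940.0 and Cluster-23513.2 lower, from 0.00473 to 0.0226. Cluster-14850.1 was the member higher at 400 than at 100 mM (DESeq2 adjusted p = 0.009997). Limma on log2(FPKM + 1) called Cluster-10695.0 alone, lower at 100 mM (limma adjusted p = 0.0362), where it called 1.21% of all clusters, 0.555% lower. Cluster-22916.0 and Cluster-23513.2 are named only because these counts are small, after their values were seen.

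Without any overlap between libraries, a weaker criterion than the test, 38 of 224 members separated at 100 mM from 0 mM, 18 higher and 20 lower. That is 17.0% of members, where 28.7% of the rows of the series table separated, 16.4% higher and 12.3% lower. At 400 mM 38 separated from 0 mM as well, 8 higher and 30 lower. Their 17.0% stands beside 26.5% of the table. The share of members higher at 400 mM was 3.57%, where 15.6% of the table was, and the share lower was 13.4%, where 10.9% was. Between both salt levels 21 separated (9.38%, where 16.7% of the table did), 9 higher at 400 mM and 12 lower, where 8.03% and 8.72% of the table were. In Cluster-23439 rows of like mean FPKM, 8.90% were higher and 13.4% lower at 100 mM, and 8.71% higher and 10.6% lower at 400 mM. Between the salt levels 7.58% of these rows were higher at 400 mM and 5.85% lower. From the lowest class of FPKM to the highest, 3.57%, 14.3%, 8.77% and 27.3% of members were lower at 400 mM than at 0 mM. In these rows it was 8.61%, 10.3%, 11.7% and 11.6%, and the highest class is not of like level. Taken in either direction, the share of members that separated was under that of the table in each comparison, with no test of the difference. The share lower at 400 mM than at 0 mM went the other way. The median mean count was 12.1 for members and 147 for Cluster-23439 rows of the table. Rows of like mean count were not taken for this criterion, so these shares do not compare salt response at like counts.

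These counts use CPM, counts scaled to library size with TMM factors, and the scaling bears on direction. With library size as the only scaling, 14 members were higher and 38 lower at 100 mM, and 4 and 40 at 400 mM, where 31.7% and 27.5% of the table separated in either direction. Under that scaling all clusters tested had a median log2 fold change of -0.31 and -0.21, and members one of -0.37 and -0.33. Without replicate 1 of either salt level, 2 libraries are set against 3 and separate more readily. In that set 65 members separated at 100 mM (25 higher, 40 lower) and 72 at 400 mM (24 higher, 48 lower). The table then gave 45.9% and 43.2%. Both salt comparisons use the same 0 mM libraries, so their values are given side by side only.

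Over all 224 members, deposited FPKM was lower on average with salt, as it was over the whole table. The median difference of mean log2(FPKM + 0.1) was -0.34 at 100 mM and -0.27 at 400 mM. Over all rows of the table it was -0.20 and -0.14. As an average of the 4 class medians it was -0.35 and -0.30 for members, and -0.32 and -0.21 for Cluster-23439 rows of like mean FPKM. The members' values differed from these rows mainly in the highest class, which is not of like level: -0.69 against -0.25 at 100 mM and -0.55 against -0.16 at 400 mM. In the lowest and the next class the medians of members lay nearer 0, at 400 mM -0.15 against -0.19 and -0.22 against -0.24, and at 100 mM -0.19 against -0.28 and -0.14 against -0.37. At 100 mM 143 members (63.8%) had a lower mean than at 0 mM, and at 400 mM 142 (63.4%), where 63.8% and 59.5% of the table did. Between 400 and 100 mM the average of class medians was -0.05 for members and 0.10 for rows of like FPKM. In the edgeR fit, which scales with TMM, the median log2 fold change of the 152 members tested was -0.09, -0.14 and -0.16 for 100 mM against 0 mM, 400 mM against 0 mM and 400 mM against 100 mM. Over all clusters tested it was -0.06, -0.02 and 0.03. Averaged over the 4 classes of mean FPKM, class medians were -0.14, -0.19 and -0.18 for members tested. For Cluster-23439 rows tested they were -0.10, -0.04 and 0.06. Single members ranged from -2.15 to 1.87 at 100 mM and from -2.88 to 2.63 at 400 mM.

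**Figure D4:**
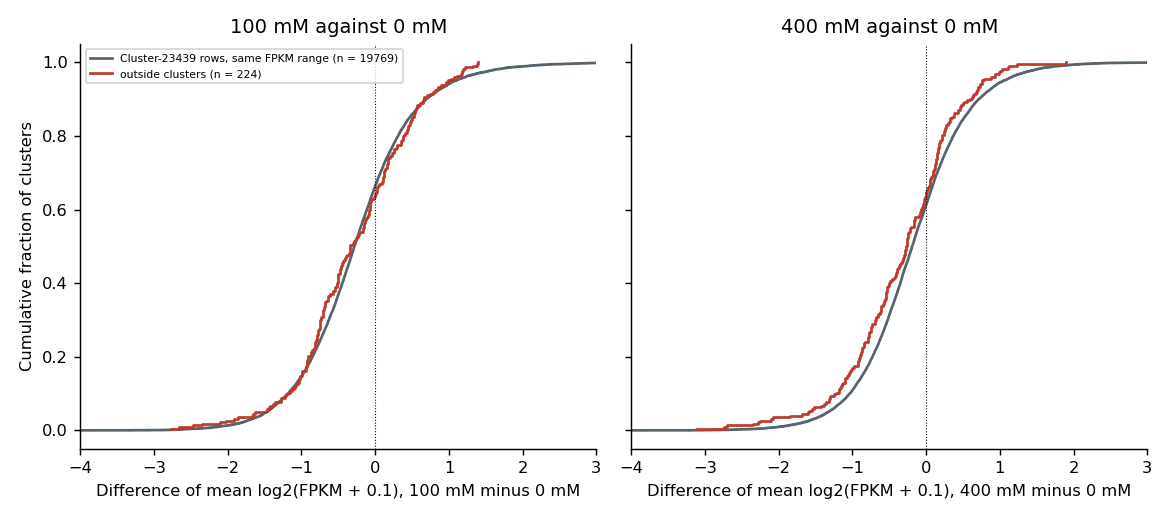
Cumulative fraction of clusters by the difference of mean log2(FPKM + 0.1) from 0 mM, at 100 mM (left) and 400 mM (right), for the 224 outside clusters (red) and the 19769 Cluster-23439 rows in the same range of mean FPKM (dark). Both curves cross 0 near the same fraction; at 400 mM the lower part of the red curve lies to the left, where the highest class has medians of -0.55 for members and -0.16 for Cluster-23439 rows.

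By library, 122 members (54.5%) had their highest FPKM in a 0 mM library, 56 at 100 mM and 46 at 400 mM. In Cluster-23439 rows of the same range 49.5% had it at 0 mM. Replicate 1 at 0 mM was the highest for 59 members (26.3%), the most of any library. It was also the most frequent highest library of Cluster-23439 rows of the same range, at 22.7%. Its median member lay 0.46 above the member's own mean on the log2(FPKM + 0.1) scale, against 0.24 for Cluster-23439 rows of the same range. That deviation was 0.18 and 0.13 in 0 mM replicates 2 and 3 for members, and 0.18 and 0.12 for those rows. With salt the members' deviation was 0.14, -0.12 and -0.16 for 100 mM and -0.05, -0.08 and -0.15 for 400 mM. The rows had 0.007, -0.10 and -0.19 for 100 mM and 0.02, 0.05 and -0.09 for 400 mM.

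The members with the smallest p give the size of difference that these counts could and could not separate. None passed the main edgeR fit, and their values follow as a description.

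Cluster-14850.1, of 1430 bases, had the smallest p among those higher with salt, and it rested on part of the 400 mM libraries. It stood at 0.86, 0.56 and 1.02 FPKM at 0 mM and 0.71, 0.46 and 0.51 at 100 mM. At 400 mM it had 8.69, 0.93 and 3.97, so that replicate 2 lay among the controls. Its counts at 400 mM were 233, 24.0 and 112. The edgeR log2 fold change at 400 mM was 2.63 ± 0.75 (SE, adjusted p = 0.223), and 1.83 without 400 mM replicate 1. Its adjusted p ran from 0.0119 to 0.523 over the alternatives.

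Cluster-21033.0, of 1507 bases, was higher in every salt library than in any at 0 mM. It had 0.67, 0.37 and 0.54 FPKM at 0 mM, 1.23, 1.97 and 1.23 at 100 mM and 0.70, 1.17 and 1.49 at 400 mM. Counts at 0 mM were 14, 9 and 13, and at 100 mM 35, 49 and 28. Its log2 fold change was 1.73 ± 0.52 (SE) at 100 mM and 1.28 ± 0.52 at 400 mM, with edgeR adjusted p of 0.175 and 0.347. The first ran from 0.0152 to 0.431 over the alternatives.

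Cluster-15940.0, of 502 bases, was ordered by salt level. It had 6.31, 5.19 and 2.63 FPKM at 0 mM, 2.60, 1.61 and 1.30 at 100 mM and 0.85, 0.72 and 0.33 at 400 mM, from 27, 25 and 13 counts down to 5, 4 and 2. No 400 mM library reached the lowest at 100 mM, and 100 mM replicate 1 came close to the lowest at 0 mM. On the scale of the fit, which overlapped at 100 mM, the log2 fold change was -1.12 ± 0.62 (SE) at 100 mM and -2.67 ± 0.67 at 400 mM, with edgeR adjusted p of 0.432 and 0.190. The latter ran from 0.00473 to 0.526 over the alternatives.

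Cluster-10695.0, of 416 bases, was lower in all 6 salt libraries. It stood at 7.69, 5.35 and 4.22 FPKM at 0 mM, 1.31, 0.61 and 1.30 at 100 mM and 1.27, 0.82 and 1 at 400 mM. Its counts were 22, 17 and 14 at 0 mM and between 2 and 5 with salt. The log2 fold change was -2.15 ± 0.66 (SE) at 100 mM and -2.26 ± 0.66 at 400 mM, with edgeR adjusted p of 0.177 and 0.229, and the latter ran from 0.0190 to 0.553 over the alternatives. The salt levels overlapped, at a log2 fold change of -0.10 between them.

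**Figure D5:**
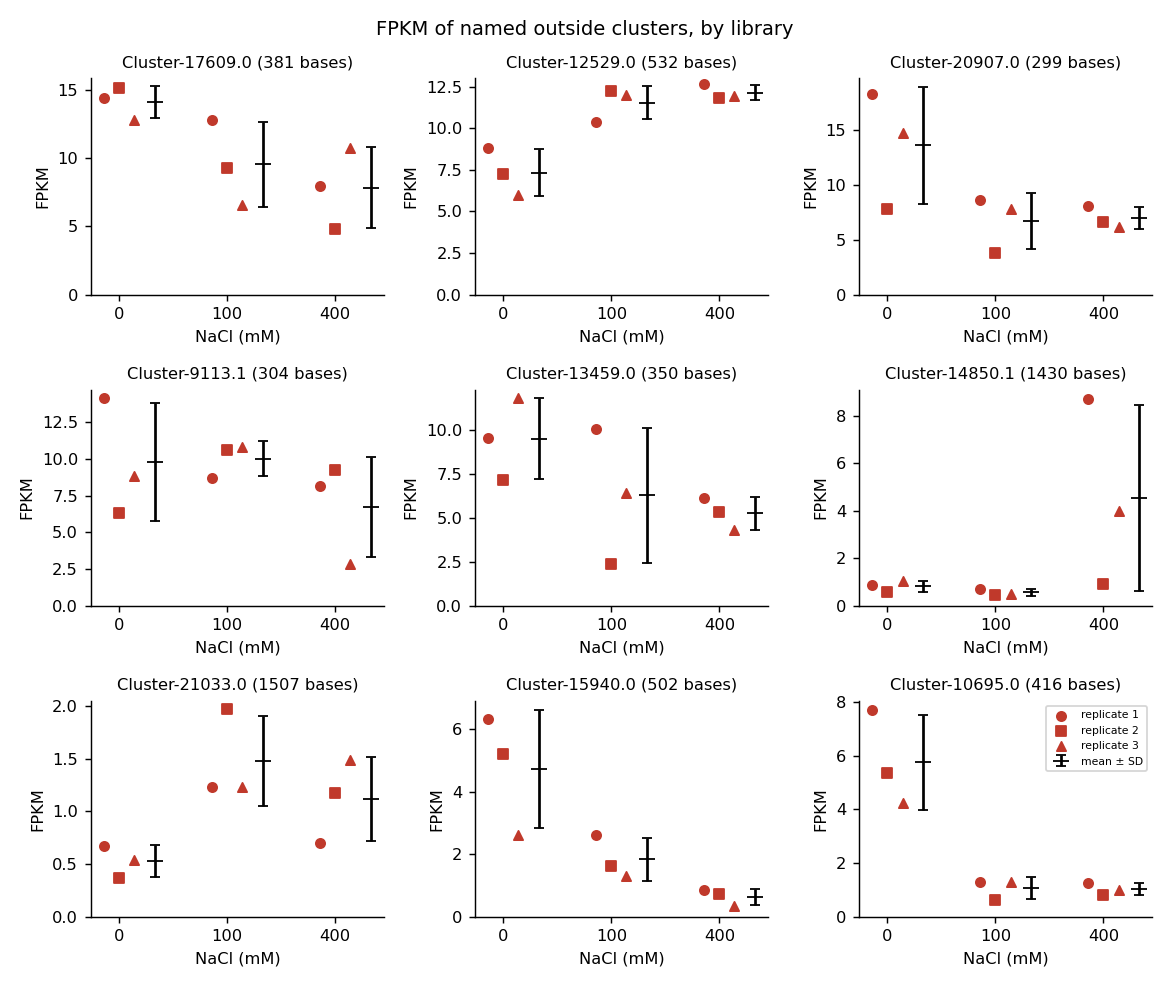
FPKM by NaCl level in mM for the 5 members with the highest mean FPKM and the 4 with the smallest p in a comparison with 0 mM, each axis from 0. Symbols are single libraries and bars the mean ± SD of 3; Cluster-10695.0 has its lowest 0 mM library at 4.22 and its highest salt library at 1.31.

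In 4 groups 2 members passed the floor. Cluster-24013.0 and Cluster-24013.1, of 375 and 319 bases, had means of 1.93 and 2.85 FPKM. Their counts ran from 2 to 9, and the low-count filter left both out of the main edgeR fit. The highest library was 100 mM replicate 3 for the former, at 3.86 FPKM, and 100 mM replicate 1 for the latter, at 5.32. Cluster-18794.0 and Cluster-18794.1 both had their lowest mean at 100 mM, at 0.683 and 0.747 FPKM beside 1.46 and 1.20 at 0 mM and 1.45 and 1.14 at 400 mM. Cluster-20228.0 and Cluster-20228.1 had a highest value of 1.84 and 1.39 FPKM, both in 400 mM replicate 1. The remaining pair, Cluster-18417.1 and Cluster-18417.3, had its lowest means at 400 mM, at 0.530 and 0.730 FPKM. Such levels rest on means of 4.33 to 13.4 counts in the first 2 of these pairs and the last, and are a description.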

How the data were processed

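Per the labels, 9 leaf libraries fall into 3 salt levels of 3 by the treatment given. Library files hold the authors' deposited read count per cluster, an estimated count since many are not whole, and the FPKM the authors computed, per the file headers. The deposited series table repeats the FPKM (0 values differ) and adds cluster lengths. The submitters' processing notes list Bowtie2 2.0.6 and TopHat2 2.0.9 without saying what each did. Assembler, counter and strand setting: not given in the sources used here. Near-identical clusters may share reads, so a cluster is uncertain as a gene.

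Counts were rounded and tested with edgeR 4.0.16 in R 4.3.3 (glmQLFit, TMM, filterByExpr). Salt level entered as 3 groups, with 6 residual degrees of freedom. The main fit used estimateDisp and the legacy mode of glmQLFit. With the newer adjusted deviances of the same version, 1103 clusters were called at 100 mM against 0 mM, in place of 284. At 400 mM against 0 mM 35 were called and between the salt levels 1, each in place of 0. The fit ran over all 56832 clusters passing the filter. DESeq2 1.42.0 and limma 3.58.1 (pseudocounts 1 and 0.1 on FPKM) were alternatives. SEs were derived from the test's F. The fit was tested on simulated data with known changes. The spread was set below that fitted here and the changed clusters had higher counts than most members. That simulation therefore does not speak to low-count members. Cluster-23439 rows of like level were taken in 4 classes bounded by the members' quartiles of mean FPKM or, added after seeing the data, of mean count, and the 4 class values were averaged. Intervals of counting cover counting error only. Named members were chosen by rule. They were the 5 highest in mean FPKM, the 2 longest and 2 shortest, and the 2 least and 2 most variable. Since the main edgeR fit called none, the 2 of smallest edgeR p in each direction against 0 mM were taken. The rule also took the 3 groups with 2 members that are highest in mean FPKM. The pair of Cluster-18417 and the clusters named after their values were seen are outside it. The members and lists were chosen with earlier results of these data known.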

Additional observations from a re-analysis of the deposited data

How the results depend on the processing

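The fits without replicate 1 of either salt level, the rows of like mean count and the median over all members without a count filter were added after seeing the data. No member was called with RLE or library-size scaling, with no count filter, with the replicate block or without any 1 library, where counts ran from 0 to 0 in each comparison. At 100 mM against 0 mM, 1 member was called with the series table's clusters alone, 1 with the newer adjusted deviances, 1 with limma at either pseudocount (Cluster-10695.0 each time), where 4.87%, 1.94%, 1.21% and 0.955% of all clusters were, and 4 with DESeq2, which called 5 at 400 mM and 1 between the salt levels. Medians of log2 fold change over members tested, -0.09 at 100 mM, -0.14 at 400 mM and -0.16 between them, kept their sign. They ran from -0.28 to -0.0153, from -0.26 to -0.10 and from -0.22 to -0.00549 without 1 library. With library size alone they were -0.37 and -0.33 against 0 mM, and without replicate 1 of either salt level -0.24 and -0.22. With no filter the 400 mM median was -0.0493. On log2(FPKM + 1) the 100 mM median was -0.18 and that between salt levels -0.0285, and on log2(FPKM + 0.1) the 3 were -0.34, -0.27 and -0.0494. Without replicate 1 of either salt level 65, 72 and 63 members had no overlap, in place of 38, 38 and 21, where 45.9%, 43.2% and 41.7% of the table had none. The length of Cluster-23439 rows went from 1657 to 703 bases at like mean count, their spread from 0.33 to 0.42 and their share of whole counts from 24.3% to 57.0%. On log2(FPKM + 0.1) the spread was 0.62 for members and 0.53 for rows of like FPKM, and without 1 library it ran from 0.36 to 0.38 for members. Of summed FPKM the members held 0.0432%, 0.0348% and 0.0340% at 0, 100 and 400 mM, against 0.0206%, 0.0170% and 0.0162% of counts. Without 1 library these shares of counts ran from 0.0190% to 0.0215%, from 0.0159% to 0.0182% and from 0.0158% to 0.0164%. What else lies behind these differences was not tested. The 4 members of smallest p passed under DESeq2 at log2 fold changes of 2.64, 1.76, -2.71 and -2.29. The alternative that widens the choice beyond 300 members did not apply. Same-numbered libraries had correlated deviations over 0.1 in 2 of 9 pairs (0.0025 to 0.359) and 4 of 9 libraries correlated best with one of their own number, so replicate numbers were not taken as pairs. With the replicate block the medians were -0.10, -0.14 and -0.16, and 0 members were called, while calls over all clusters went from 284 to 601 at 100 mM and from 0 to 83 at 400 mM. Low counts limit the precision of single members, and the low-count filter left 72 of 224 out of the main edgeR fit.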

Other observations

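A few further members, among those counted above as separating without overlap, were chosen after their values were seen. Cluster-22377.0, of 441 bases, stood at 11.31, 6.03 and 9.49 FPKM at 0 mM and at 6.15 in 100 mM replicate 1, but at 0.53 and 0.57 in 100 mM replicates 2 and 3 and at 1.78, 0.48 and 0.87 at 400 mM. Cluster-17437.0, of 618 bases, had 7.92, 6.12 and 10.62 FPKM at 0 mM, 4.66, 0.55 and 0.45 at 100 mM and 2.35, 0.62 and 0.91 at 400 mM. In both, replicate 1 was the highest library of each salt level, as it was for the share of counts in all outside clusters. Neither was called, with edgeR adjusted p of 0.2997 and 0.329 at 400 mM.

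Cluster-12903.0, of 1941 bases, was high in a single library. It had 218 counts in 100 mM replicate 1 and between 22.6 and 46.1 in the other 8 libraries, or 5.71 FPKM beside 0.61 to 1.38. Its log2 fold change of 1.56 at 100 mM (edgeR adjusted p = 0.309) did not pass.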
